A study of Homo sapiens with 36 samples.

Results

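The genes described here are 8 genes of the extrinsic death receptor pathway, 3 receptors of the ligand TRAIL (TNFRSF10A, TNFRSF10C and TNFRSF10D), the adaptor FADD, the initiator caspases CASP8 and CASP10, their inhibitor CFLAR and the apoptosome scaffold APAF1. They were chosen by gene symbol, and all 8 were found among the 37549 gene symbols of the count table. Total RNA depleted of ribosomal RNA was sequenced from 3 lines of malignant B cells in culture, MEC1, JVM2 and EHEB, with 36 libraries in 12 groups of 3. Each line received 50 µM fludarabine (a purine analogue), 5 µM ibrutinib (an inhibitor of the B-cell receptor kinase BTK), 10 µM idelalisib (an inhibitor of the PI3K delta kinase) or DMSO, the vehicle that serves as control for all the drugs of a line. MEC1, described in the study's methods as p53-mutated, was harvested after 48 h. The p53-wild-type lines JVM2 and EHEB were harvested after 72 h and 96 h, so that line, p53 status and length of exposure cannot be told apart. The comparisons ask how each drug changed these transcripts within a line, and whether the change differed between lines.

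TRAIL and related ligands gather their receptors on the cell surface, FADD bridges the receptor tails to procaspase-8 and procaspase-10. The assembled caspases then cleave themselves into active form. The product of CFLAR, c-FLIP, resembles caspase-8 without its full activity and competes for a place in that complex. Decoy receptors bind TRAIL without passing on a complete death signal, and APAF1 serves the mitochondrial branch, where it is assembled with cytochrome c to activate caspase-9.

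The totals of the 36 libraries ran from 26590705 to 53538925 counts, with a median of 42114146. Within groups, pairs of libraries differed by more than sampling noise in all 36 pairs (chi-square per degree of freedom 12.3 to 24.8 over genes), so none was counted as a duplicate. The labels do not say whether the 3 libraries of a group came from separate cultures, and the methods speak of independent experiments only in general. The p-values therefore measure the spread between these libraries, which may be technical. The 7 B-cell markers of the list were all measured, with a summed level of 672 to 2195 CPM (counts relative to the library total, TMM-scaled within a line). Markers of other cells reached at most 15.6 CPM for 5 T-cell genes, 5.94 CPM for 4 monocyte genes, 25.1 CPM for 3 NK-cell genes and 36.8 CPM for 3 epithelial or fibroblast genes. CD3D, CD3G and LYZ stayed at or under 8 counts in every library. The B-cell sum itself moved with treatment, from 1284 to 1308 CPM with DMSO to 672 to 733 CPM with fludarabine in JVM2 and from 1175 to 1224 CPM to 1985 to 2195 CPM with ibrutinib in MEC1. In EHEB it was 1773 to 1843 CPM with DMSO and 951 to 1065 CPM with fludarabine. Sums for other cells moved as well, in MEC1 from at most 1.01 CPM with DMSO to at least 4.83 CPM with fludarabine for T-cell genes and from at most 0.924 CPM to at least 4.44 CPM for monocyte genes. The part of these shifts in the results was not tested. The libraries of both kinase inhibitors carry numbers far from those of the DMSO libraries, so number run and drug cannot be told apart in those comparisons. In bulk RNA a smaller number of expressing cells and less RNA per cell cannot be told apart.

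The inhibitor and the initiator caspases are neighbours in the genome. On chromosome 2 (GRCh38, GENCODE, plus strand), CFLAR (ENSG00000003402.21, 201116154 to 201176687), CASP10 (ENSG00000003400.16, 201182872 to 201229428) and CASP8 (ENSG00000064012.24, 201233443 to 201361836) follow each other with 6184 and 4014 bases between them. FADD (ENSG00000168040.5) lies on chromosome 11 (plus strand, 70203296 to 70207390) and APAF1 (ENSG00000120868.14) on chromosome 12 (plus strand, 98645290 to 98735433). FADD, CASP8, CASP10, CFLAR and APAF1 overlap annotated genes on the opposite strand, and CASP8 and CFLAR also on their own. Whether the counting used strand is not given in the sources used here, so reads of overlapping genes may be shared.

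RefSeq promoter windows (GRCh38.p14, 250 bases before to 50 after a start) of FADD, CASP8, CFLAR and APAF1 were searched on both strands for the NF-kB consensus, a p53 half-site and an E2F consensus. The last reads TTT, then C or G at both of the next positions, then CGC. A single match to NF-kB was found among the 4 windows of CFLAR and a single match to the p53 half-site among the 3 of CASP8. The 30 bases around each are shown because CFLAR was the member raised in most comparisons and because CASP8 is the protease that its product restrains. The capitals mark the matched letters:
CFLAR, chr2:201118609-201118638, plus strand: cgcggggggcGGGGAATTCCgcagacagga
CASP8, chr2:201257904-201257933, plus strand: ctttccaataAAGCATGTCCagcgctcggg
The CFLAR match began 97 bases before the annotated start of its window and is spanned by 10 annotated CFLAR transcripts, 2 exons of which it overlaps. The CASP8 match began 121 bases before its start and is spanned by 8 CASP8 transcripts, all of them in introns. Among 35116 promoter windows of the same length, 11.3% held the NF-kB consensus, 6.63% the p53 half-site and 3.31% the E2F consensus, which none of the 9 windows of the members held. These are matches of letters, and no binding was measured.

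With DMSO alone the lines differed in most members tested, as they did in 59.6% to 67.4% of all genes tested. The 3 TRAIL receptors are neighbours. On chromosome 8, TNFRSF10C (ENSG00000173535.15, plus strand, 23102921 to 23117445) is followed after 18142 bases by TNFRSF10D (ENSG00000173530.6, minus strand, 23135588 to 23164027), which is followed after 26424 bases by TNFRSF10A (ENSG00000104689.10, minus strand, 23190452 to 23225102). TNFRSF10A overlaps annotated genes on the opposite strand and TNFRSF10C overlaps 2 on its own strand, which limits their counts as above. The death receptor TNFRSF10A, which carries the TRAIL signal into the cell, stood at 14.98, 15.1 and 14.1 CPM in the 3 MEC1 libraries and at 1.41, 1.72 and 1.02 CPM in the EHEB libraries. It had 0 counts in all 3 JVM2 libraries. MEC1 exceeded EHEB by a log2 fold change of 3.31 ± 0.21 (SE, edgeR quasi-likelihood test with Benjamini-Hochberg adjustment, as for every adjusted p here, adjusted p = 8.69e-06). Against the floor of 3 reads per library, about 8 of the counts in this table, MEC1 was at least 67.8-fold and EHEB at least 6.83-fold higher than JVM2. The decoy receptor TNFRSF10D stood at 34.4 ± 1.36 CPM (SD, n = 3) in MEC1, 5.51 ± 0.806 CPM in JVM2 and 4.77 ± 0.665 CPM in EHEB. MEC1 was higher than JVM2 by 2.53 ± 0.14 and than EHEB by 2.74 ± 0.14 on the log2 scale (adjusted p = 3.88e-07 and 2.22e-07). JVM2 and EHEB did not differ in it beyond their spread (adjusted p = 0.208).

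CFLAR had the opposite order. Its level was 45.4, 42.0 and 48.6 CPM in MEC1, 226, 232.7 and 237 CPM in JVM2, and 298, 303 and 321 CPM in EHEB. No library of MEC1 came near the other lines. CFLAR was lower in MEC1 than in JVM2 by a log2 fold change of -2.46 ± 0.064 (adjusted p = 5.22e-09) and than in EHEB by -2.87 ± 0.065 (adjusted p = 2.65e-09). CASP8 was higher in MEC1, at 39.5 ± 1.01 CPM, than in JVM2 (16.5 ± 1.70 CPM, log2 fold change 1.15 ± 0.087) and EHEB (15.5 ± 0.855 CPM, 1.24 ± 0.087). JVM2 and EHEB did not differ in it beyond their spread (adjusted p = 0.372). Counted per kilobase of the canonical transcript within each library, CFLAR reached 0.209 ± 0.0195 (SD, n = 3) of the CASP8 level in MEC1, 2.57 ± 0.225 times it in JVM2 and 3.62 ± 0.346 times it in EHEB. The canonical lengths are 14612 bases for CFLAR and 2659 bases for CASP8. Which transcripts were present was not measured, so whether CFLAR lies above or below CASP8 depends on these lengths. The same limit holds for the other ratios per kilobase below.

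The remaining members were ordered in other ways. CASP10, the close relative of caspase-8, was highest in EHEB at 24.2 ± 0.786 CPM, lower in MEC1 at 15.4 ± 0.944 CPM and lowest in JVM2 at 10.2 ± 1.03 CPM (adjusted p = 8.34e-05 and 0.00134 between neighbours). In the fit of all 36 libraries neither of these CASP10 differences passed (adjusted p = 0.0529 and 0.184). APAF1 was lower in JVM2, at 33.8 ± 1.05 CPM, than in MEC1 (74.0 ± 4.86 CPM) and EHEB (60.6 ± 11.8 CPM), which did not differ beyond their spread (adjusted p = 0.211). Without the EHEB library at 73.9 CPM this APAF1 difference passed (0.35, adjusted p = 0.00697). FADD ran from 22.0 ± 2.08 CPM in JVM2 through 27.1 ± 1.39 CPM in EHEB to 35.6 ± 0.240 CPM in MEC1, and all neighbours in that order differed (adjusted p = 0.0111 and 0.0101). In all, 7 of 7 members tested were called at an adjusted p below 0.05 between MEC1 and JVM2, where 63.8% of all genes tested were called. The count was 6 of 7 between MEC1 and EHEB (67.4% of all genes), and 5 of 7 between EHEB and JVM2 (59.6% of all genes). TNFRSF10C was too low in DMSO to be tested between lines.

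**Figure D1:**
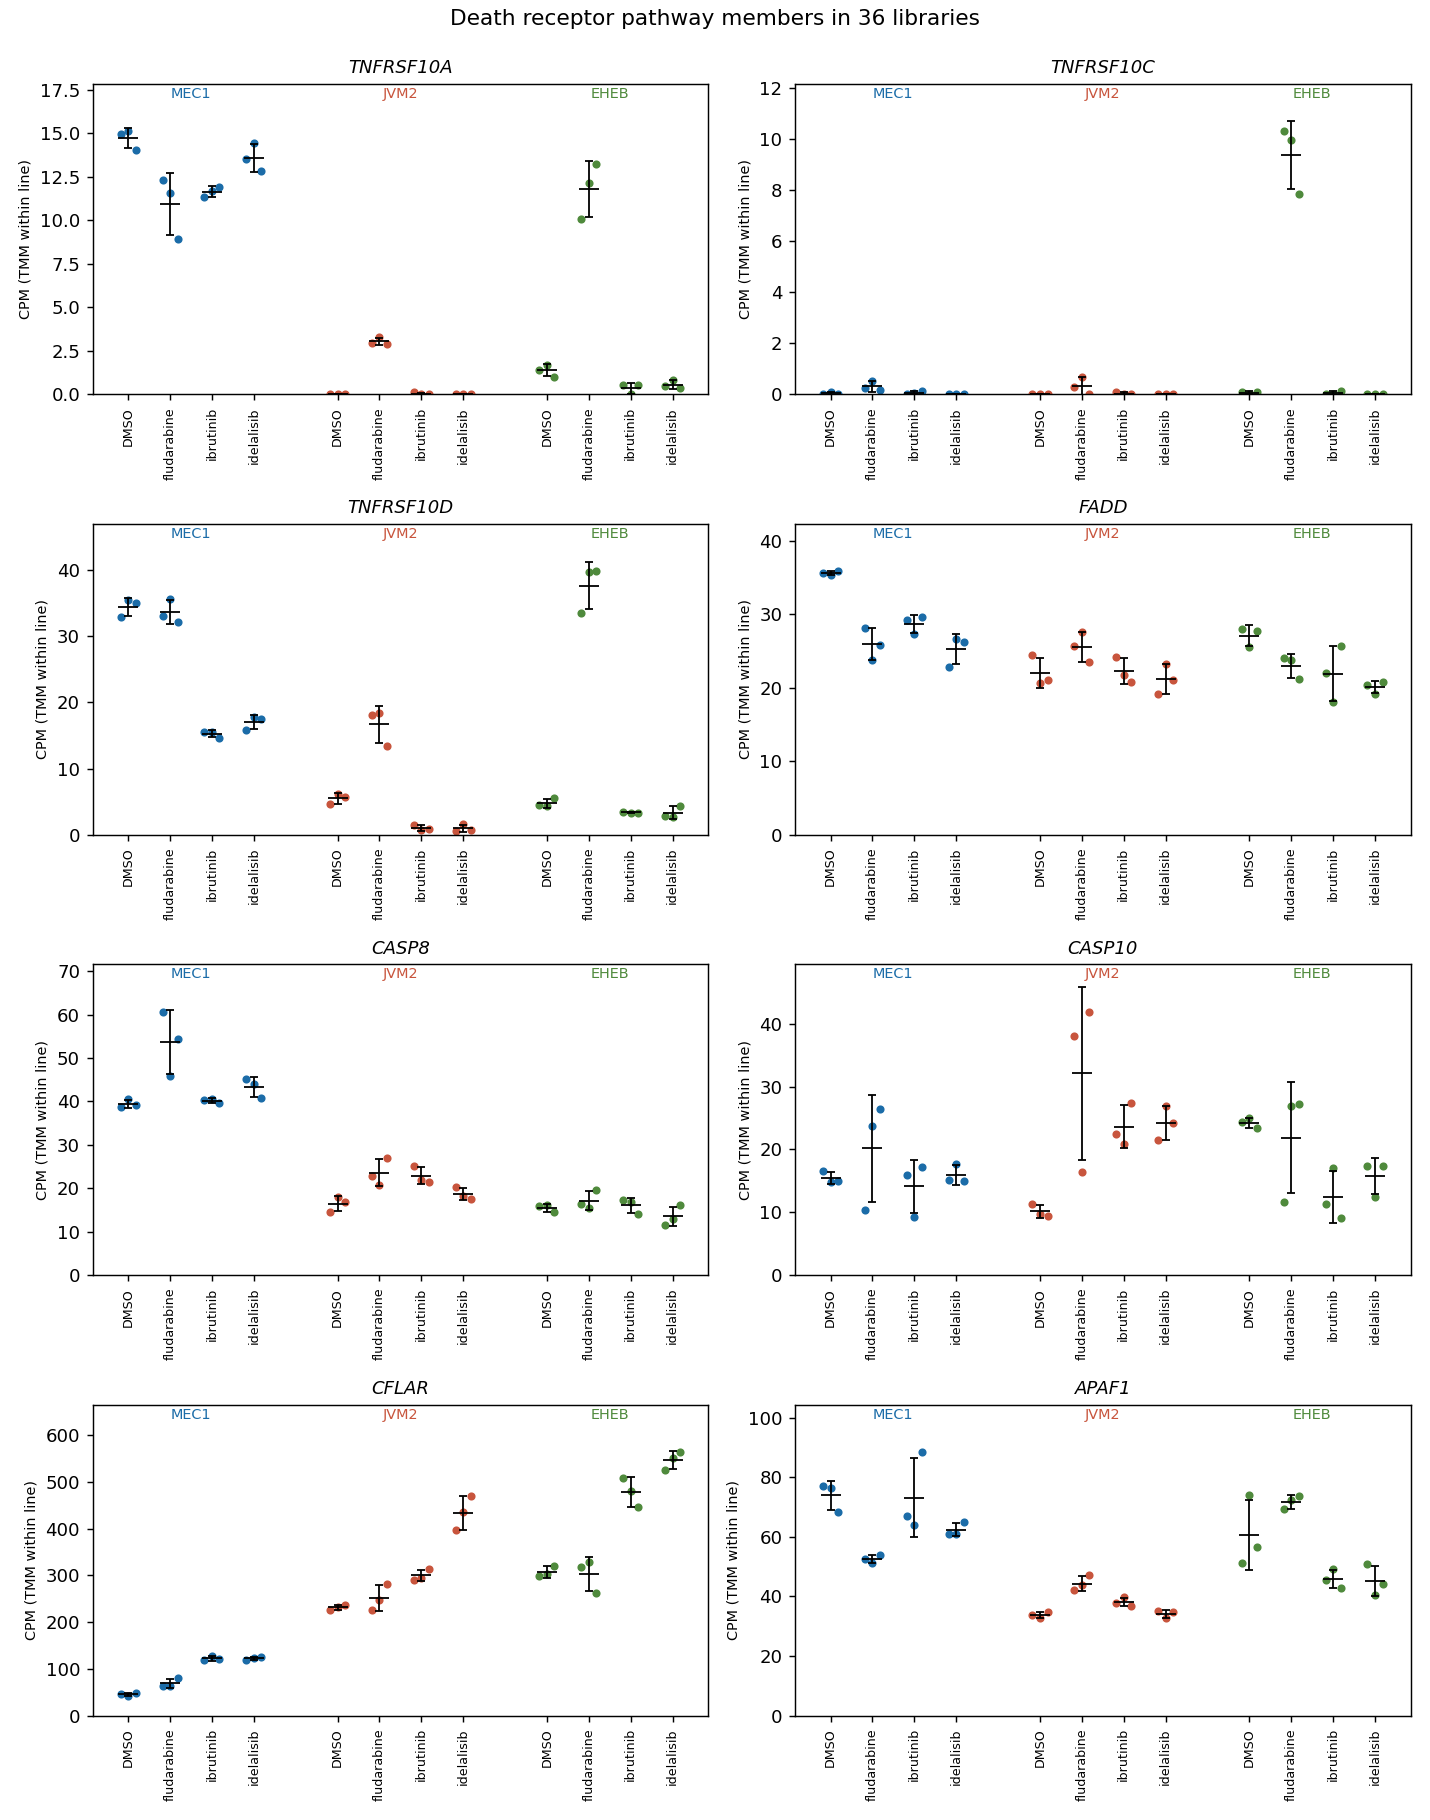
CPM (TMM-scaled within a line, linear axis from 0) of the 8 members in each of the 36 libraries, as points, with the group mean and SD of 3 libraries as bars. TNFRSF10A and TNFRSF10D stand up with fludarabine in JVM2 and EHEB but not in MEC1, where CFLAR starts at 45.3 CPM with DMSO and reaches 123 CPM with either kinase inhibitor.

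Fludarabine raised TNFRSF10A and TNFRSF10D in JVM2 and EHEB. TNFRSF10A in EHEB went from 1.41, 1.72 and 1.02 CPM with DMSO to 10.1, 12.1 and 13.2 CPM with fludarabine. The 2 groups did not overlap, and the log2 fold change was 3.10 ± 0.54 (SE, edgeR quasi-likelihood test, adjusted p = 9.23e-04). Such separation was common in every comparison with DMSO. Treated and DMSO libraries did not overlap for 55.8%, 57.3% and 64.0% of all genes tested in MEC1 with fludarabine, ibrutinib and idelalisib. The shares were 57.8%, 44.5% and 56.3% in JVM2 and 51.8%, 37.5% and 48.8% in EHEB. In JVM2, where TNFRSF10A had 0 counts in every DMSO library, the fludarabine libraries stood at 2.98, 3.28 and 2.90 CPM (409 counts in all), which is at least 15.1-fold above the floor (adjusted p = 5.69e-04). It could be tested in JVM2 only because of its level with fludarabine. In MEC1, in contrast, TNFRSF10A fell by 0.42 ± 0.11 on the log2 scale (12.3, 11.6 and 8.94 CPM against 14.98, 15.1 and 14.1 CPM, adjusted p = 0.0103). That call was lost when libraries were scaled by their totals alone (adjusted p = 0.274) and in the fit of all 36 libraries (adjusted p = 0.457).

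TNFRSF10D rose in the same lines. With fludarabine it stood at 33.5, 39.6 and 39.7 CPM in EHEB against 4.45, 4.33 and 5.54 CPM with DMSO, a log2 fold change of 2.98 ± 0.18 (adjusted p = 2.88e-07). In JVM2 it stood at 18.1, 18.4 and 13.4 CPM against 4.61, 6.17 and 5.75 CPM, a log2 fold change of 1.59 ± 0.32 (adjusted p = 0.00171). Treated and control libraries were apart in both lines, whereas in MEC1 they overlapped at 33.0, 35.6 and 32.1 CPM against 32.9, 35.4 and 34.9 CPM (log2 fold change -0.03 ± 0.074, adjusted p = 0.737).

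TNFRSF10C, a decoy receptor held in the membrane by a lipid anchor, was all but absent except in EHEB cells given fludarabine. Its counts there were 289, 333 and 296, against 4, 0 and 5 with DMSO, and at most 32 counts in any library of MEC1 or JVM2. Most counts of those lines were in fludarabine libraries, summing to 34 against 5 with DMSO in MEC1 and 45 against 0 in JVM2. In EHEB the 9 counts with DMSO amount to about 3 reads and the 918 with fludarabine to about 344, a ratio of 147 after scaling (95% exact interval 49.7 to 714, covering counting error only). The change passed the test (adjusted p = 8.22e-05). It was testable in EHEB only through its level with fludarabine, and ibrutinib and idelalisib libraries of EHEB held at most 6 counts, at or under the floor. The effect of fludarabine differed between lines for TNFRSF10A (test of the interaction, adjusted p = 1.11e-08) and TNFRSF10D (adjusted p = 3.69e-08), but the difference for TNFRSF10C did not pass the test (adjusted p = 0.250).

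The kinase inhibitors moved TNFRSF10D the other way. In MEC1 it fell from 32.9, 35.4 and 34.9 CPM with DMSO to 15.6, 15.5 and 14.6 CPM with ibrutinib and to 15.8, 17.8 and 17.5 CPM with idelalisib. The log2 fold changes were -1.17 ± 0.075 (adjusted p = 5.03e-07) and -1.01 ± 0.075 (adjusted p = 7.29e-07). In JVM2 it fell from 4.61, 6.17 and 5.75 CPM to 1.49, 0.798 and 0.802 CPM with ibrutinib and to 0.637, 1.62 and 0.679 CPM with idelalisib, with log2 fold changes of -2.39 ± 0.35 (adjusted p = 5.10e-04) and -2.50 ± 0.35 (adjusted p = 1.85e-04). No treated library overlapped the DMSO libraries in either line, as for 44.5% to 64.0% of all genes tested in these comparisons. In EHEB the levels were 3.51, 3.29 and 3.36 CPM with ibrutinib (-0.49 ± 0.17, adjusted p = 0.0711). They were 2.89, 2.71 and 4.42 CPM with idelalisib (-0.52 ± 0.18, adjusted p = 0.041), and that call was lost without any of 11 of the 12 libraries of the line. The effect differed between lines for ibrutinib (adjusted p = 1.55e-04) and for idelalisib (adjusted p = 0.0014).

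TNFRSF10A changed less than TNFRSF10D under these drugs in MEC1, while its estimated falls in EHEB were larger. In MEC1 it stood at 11.3, 11.7 and 11.9 CPM with ibrutinib, below all DMSO libraries (log2 fold change -0.34 ± 0.11, adjusted p = 0.0284), and at 13.5, 14.5 and 12.9 CPM with idelalisib (-0.11 ± 0.11, adjusted p = 0.41). The ibrutinib call was lost without any of 5 libraries, with adjusted p up to 0.0745. In EHEB it stood at 0.517, 0 and 0.549 CPM with ibrutinib (-1.88 ± 0.60, adjusted p = 0.0494), a call that was lost in 11 of the 12 fits that left out a library. It stood at 0.493, 0.829 and 0.349 CPM with idelalisib (-1.26 ± 0.58, adjusted p = 0.123). These EHEB levels rest on 23, 0 and 24 counts with ibrutinib and 14, 38 and 11 with idelalisib. Whether the EHEB falls differ from those of TNFRSF10D was not tested. In JVM2 TNFRSF10A stayed at or under the floor with both inhibitors. Both receptors had reads well over the floor in all groups of MEC1. There, counts of decoy TNFRSF10D per kilobase went from 1.78 ± 0.110 times those of TNFRSF10A with DMSO to 2.37 ± 0.352 with fludarabine, 0.996 ± 0.0586 with ibrutinib and 0.954 ± 0.0752 with idelalisib. The 3 treated groups were each apart from DMSO (exact two-sided permutation test, p = 0.1, the smallest that 3 against 3 libraries can give). Adjusted over the 21 ratios tested, which were chosen after values were seen, this was 0.15.

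FADD was lower with every drug in MEC1 and with idelalisib in EHEB, by small amounts. In MEC1 it stood at 35.7, 35.4 and 35.8 CPM with DMSO. It stood at 28.1, 23.8 and 25.9 CPM with fludarabine (log2 fold change -0.46 ± 0.082, adjusted p = 8.75e-04). Levels were 29.2, 27.3 and 29.7 CPM with ibrutinib (-0.31 ± 0.082, adjusted p = 0.00852) and 22.9, 26.7 and 26.2 CPM with idelalisib (-0.50 ± 0.082, adjusted p = 3.34e-04). All 9 treated libraries were below all DMSO libraries, but with scaling by library totals the fludarabine and ibrutinib calls were lost (adjusted p = 0.0833 and 0.0512). The DMSO libraries of EHEB stood at 28.1, 25.5 and 27.7 CPM and those with idelalisib at 20.3, 19.1 and 20.8 CPM (-0.43 ± 0.11, adjusted p = 0.0129, or 0.0516 without the DMSO library at 28.1 CPM). The other drugs gave falls in EHEB that did not pass. With ibrutinib it was -0.31 ± 0.11 (adjusted p = 0.0836), which passed in DESeq2 (adjusted p = 0.0495) and in the fit of all 36 libraries (adjusted p = 0.0452). With fludarabine it was -0.24 ± 0.11 (adjusted p = 0.125), with all libraries below DMSO. In JVM2 no change passed the test, with log2 fold changes from -0.06 with idelalisib to 0.22 with fludarabine. The effects differed between lines with fludarabine (adjusted p = 0.00113) and idelalisib (adjusted p = 0.00868) but not with ibrutinib at the threshold (adjusted p = 0.136).

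CASP8 was raised in 3 comparisons and lowered in none. In MEC1 fludarabine brought it from 38.7, 40.6 and 39.1 CPM to 60.7, 45.95 and 54.5 CPM, a log2 fold change of 0.44 ± 0.090 (adjusted p = 0.00202). In JVM2 it went from 14.7, 18.01 and 16.9 CPM to 22.9, 20.8 and 26.9 CPM with fludarabine (0.51 ± 0.11, adjusted p = 0.00349) and to 25.2, 22.0 and 21.5 CPM with ibrutinib (0.47 ± 0.11, adjusted p = 0.00991). These treated libraries all lay above their DMSO libraries, while every drug group of EHEB overlapped its DMSO group (log2 fold changes -0.20 to 0.15). Only the ibrutinib effect differed between lines by the test of the difference (adjusted p = 0.0177), and not without the JVM2 DMSO library at 14.7 CPM or the JVM2 ibrutinib library at 25.2 CPM (adjusted p = 0.0532 and 0.0598).

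CASP10 rose in JVM2 with each drug. From 11.3, 9.69 and 9.47 CPM with DMSO it went to 38.1, 16.4 and 41.9 CPM with fludarabine (log2 fold change 1.66 ± 0.28, adjusted p = 6.06e-04). It went to 22.4, 20.9 and 27.4 CPM with ibrutinib (1.22 ± 0.28, adjusted p = 0.00782) and to 21.4, 26.9 and 24.2 CPM with idelalisib (1.25 ± 0.28, adjusted p = 0.00398). Every treated library was above every DMSO library, though 1 fludarabine library stood well below the other two. In EHEB the direction was down with ibrutinib, from 24.4, 24.9 and 23.4 CPM to 11.3, 17.1 and 9.07 CPM (-0.96 ± 0.30, adjusted p = 0.0477), a call lost in 10 of the 12 fits that left out a library. MEC1 showed no change past the test, with libraries from 9.26 to 26.4 CPM, although fludarabine passed without its library at 10.4 CPM (0.69, adjusted p = 0.0267). Spread between replicates was wide for this gene. Its pooled SD within groups on the log2 CPM scale was 0.44 in MEC1, 0.40 in JVM2 and 0.44 in EHEB. The median gene had 0.14, 0.12 and 0.13, and CASP10 exceeded 93.4%, 92.1% and 92.7% of genes. The lines differed in the effect of ibrutinib (adjusted p = 2.19e-04), idelalisib (adjusted p = 1.46e-06) and fludarabine (adjusted p = 0.0259), the last not without any of 4 JVM2 libraries (adjusted p up to 0.0752).

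CFLAR was raised in 7 of the 9 comparisons with DMSO and lowered in none. In MEC1 it went from 45.4, 42.0 and 48.6 CPM to 63.8, 63.2 and 80.1 CPM with fludarabine, a log2 fold change of 0.61 ± 0.092 (adjusted p = 2.88e-04). Ibrutinib libraries of MEC1 stood at 119, 128 and 120 CPM and idelalisib libraries at 119, 124 and 126 CPM, log2 fold changes of 1.44 ± 0.093 in both (adjusted p = 5.60e-07 and 3.09e-07). All drug groups of MEC1 were above DMSO, and the inhibitor groups were above the fludarabine group.

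The same inhibitors raised CFLAR in the other lines from a higher start. In JVM2 it went from 226, 232.7 and 237 CPM to 290, 295 and 314 CPM with ibrutinib (0.37 ± 0.081, adjusted p = 0.00543). It went to 396, 435 and 470 CPM with idelalisib (0.91 ± 0.081, adjusted p = 6.95e-06). In EHEB it went from 298, 303 and 321 CPM to 508, 481 and 446 CPM with ibrutinib (0.64 ± 0.081, adjusted p = 3.01e-04). It went to 526, 552 and 564 CPM with idelalisib (0.83 ± 0.081, adjusted p = 1.68e-05). No inhibitor library overlapped DMSO in any line. In single comparisons, 37.5% to 64.0% of all genes tested did not overlap either. Fludarabine libraries overlapped DMSO in JVM2 (226, 247 and 281.8 CPM, 0.12 ± 0.081, adjusted p = 0.247, or 0.32 and 0.015 when scaled by library totals). They did so too in EHEB (318, 329 and 263 CPM, -0.02 ± 0.081, adjusted p = 0.881, or 0.09 when scaled by library totals). The effect on CFLAR differed between lines for all 3 drugs (adjusted p = 9.78e-07 with ibrutinib, 2.29e-04 with idelalisib and 0.00361 with fludarabine). Even at its highest, 128 CPM, no MEC1 library reached the lowest DMSO library of the other lines, each line being scaled on its own.

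The ratio of CFLAR to CASP8 counts per kilobase does not depend on how libraries are scaled, though its level depends on the transcript lengths used. In MEC1 it was 0.214, 0.188 and 0.226 with DMSO, 0.539, 0.575 and 0.552 with ibrutinib and 0.479, 0.511 and 0.561 with idelalisib, 2.66 and 2.47 times the DMSO value. In EHEB it was 3.41, 3.43 and 4.02 with DMSO, 5.33, 5.19 and 5.78 with ibrutinib and 8.21, 7.81 and 6.39 with idelalisib, 1.503 and 2.06 times the DMSO value. JVM2 differed in that only idelalisib raised the ratio (3.54, 4.34 and 4.85 against 2.80, 2.35 and 2.55) while ibrutinib left it overlapping at 2.09, 2.44 and 2.65 and fludarabine lay below at 1.80, 2.16 and 1.91. Where the groups were apart the exact two-sided permutation test gave p = 0.1, the smallest possible, and 0.15 adjusted over the 21 ratios. The ratio of CASP10 to CASP8 lay above DMSO with all 3 drugs in JVM2 (0.293 ± 0.0609 with DMSO, 0.487 ± 0.0974 to 0.627 ± 0.224 with drugs). It lay below it with both inhibitors in EHEB (0.734 ± 0.0191 with DMSO, 0.361 ± 0.0986 with ibrutinib and 0.554 ± 0.128 with idelalisib), with the same p-values.

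APAF1 went in different directions by line. With fludarabine it fell in MEC1 from 77.2, 76.5 and 68.4 CPM to 52.7, 51.3 and 53.95 CPM (log2 fold change -0.49 ± 0.11, adjusted p = 0.0033, or 0.0866 when scaled by library totals). It rose in JVM2 from 33.7, 32.8 and 34.9 CPM to 42.0, 43.7 and 47.1 CPM (0.39 ± 0.060, adjusted p = 2.85e-04), with no overlap in either line. With ibrutinib the change in JVM2 was 0.17 ± 0.060 (adjusted p = 0.0505), which passed in DESeq2 (adjusted p = 0.0453). With idelalisib the change in MEC1 was -0.25 ± 0.11 (adjusted p = 0.0708), which passed when scaled by library totals (adjusted p = 0.0178). Ibrutinib in MEC1 (-0.02, adjusted p = 0.912) and idelalisib in JVM2 (0.02, adjusted p = 0.85) left it near DMSO. In EHEB a single DMSO library stood at 73.9 CPM and the others at 51.2 and 56.7 CPM. Against these, APAF1 was at 69.2, 72.3 and 73.6 CPM with fludarabine (0.24 ± 0.13, adjusted p = 0.158). It was at 45.6, 49.0 and 42.9 CPM with ibrutinib (-0.40 ± 0.13, adjusted p = 0.046) and at 50.7, 40.6 and 44.1 CPM with idelalisib (-0.42 ± 0.13, adjusted p = 0.0238). Without the DMSO library at 73.9 CPM both inhibitor calls were lost (-0.23, adjusted p = 0.172, and -0.24, adjusted p = 0.1) and the fludarabine difference passed (0.40, adjusted p = 0.0119). In all, the ibrutinib call was lost in 9 of the 12 fits that left out a library and the idelalisib call in 3 of them. Both were lost when scaled by library totals (adjusted p = 0.133 and 0.0803) and in the fit of 6 libraries (0.113 and 0.0722), and the ibrutinib call also with no filter (0.0588). The effect of fludarabine on APAF1 differed between lines (adjusted p = 5.39e-04), and with the inhibitors the difference did not pass (adjusted p = 0.0526 and 0.0581). Both inhibitor differences did pass in DESeq2 (adjusted p = 0.0202 and 0.0412), and over all alternatives the adjusted p of APAF1 ran from 0.0129 to 0.134 for ibrutinib and from 0.0191 to 0.1497 for idelalisib.

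**Figure D2:**
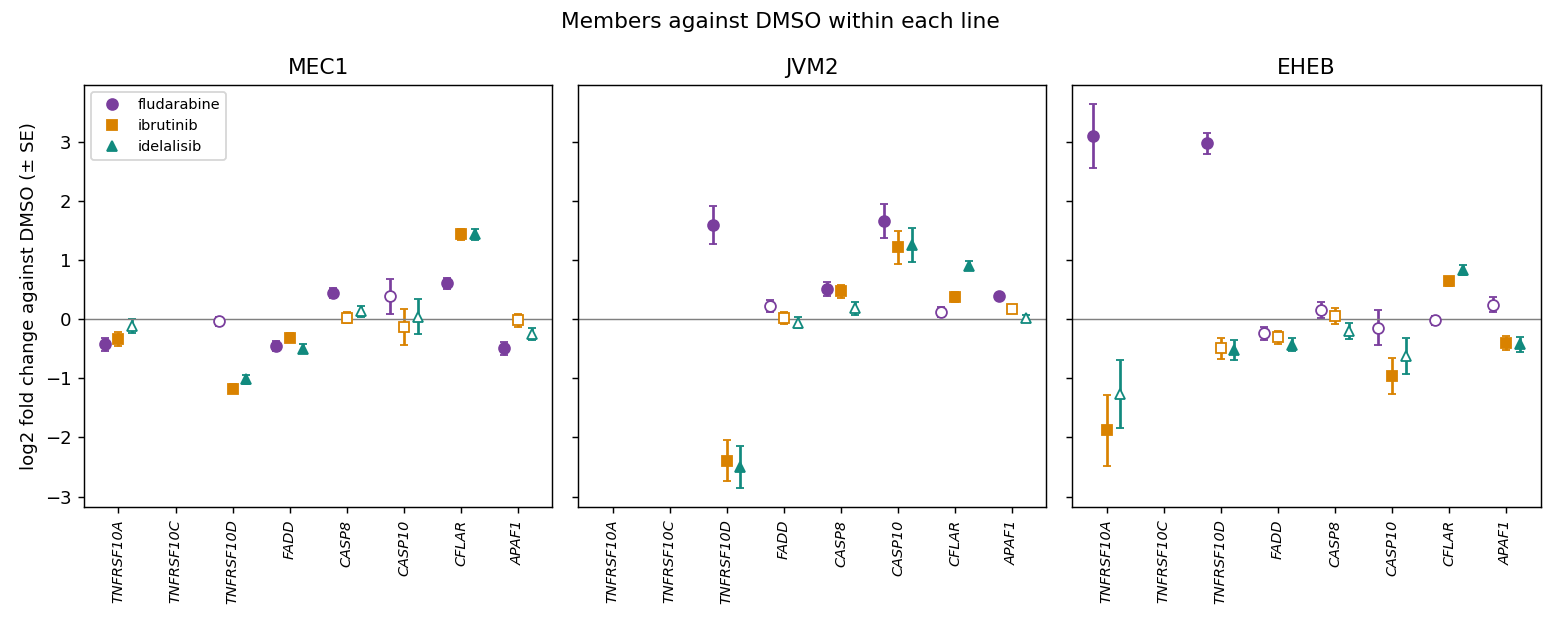
Log2 fold change against DMSO (points) with its SE (bars) for the members in MEC1, JVM2 and EHEB, filled where the adjusted p was below 0.05 and open otherwise. CFLAR lies above 0 with both inhibitors in all lines and TNFRSF10D below 0. Values are left out where the gene was not tested, was at or under the floor in both groups, or rests on at most 3 reads in DMSO (TNFRSF10A in JVM2 and TNFRSF10C in EHEB with fludarabine).

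Counted by comparison, CFLAR was raised in 7, TNFRSF10D was raised in 2 and lowered in 5, FADD was lowered in 4 and CASP8 was raised in 3 of the 9 comparisons with DMSO. TNFRSF10A was raised in 2 and lowered in 3, CASP10 was raised in 3 and lowered in 1, and APAF1 was raised in 1 and lowered in 3. TNFRSF10C was raised in 1 of the 3 in which it was tested. How many of all genes were called that often was not counted. In MEC1, fludarabine changed 5 of 7 members tested, 2 higher and 3 lower, where 43.9% of all genes were called, 21.2% higher and 22.7% lower. Ibrutinib changed 4 of 7, 1 higher and 3 lower, where 47.6% of genes were called, 23.7% higher and 23.9% lower. Idelalisib changed 3 of 7, 1 higher and 2 lower, where 55.0% of genes were called, 27.6% higher and 27.4% lower. The median log2 fold change of the 7 members was -0.03, -0.13 and -0.11 in that order, and that of all genes 0.06, 0.06 and 0.08.

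In JVM2, fludarabine raised 5 of 7 members and lowered none, where 47.2% of genes were called, 23.9% higher and 23.3% lower, with TNFRSF10A among the 5 only through its fludarabine level. Ibrutinib changed 4 of 7, 3 higher and 1 lower, where 29.4% of genes were called, 14.5% higher and 15.0% lower. Idelalisib changed 3 of 7, 2 higher and 1 lower, where 44.2% of genes were called, 21.6% higher and 22.6% lower. The median member stood at 0.51 with fludarabine, TNFRSF10A being taken at its bound, and at 0.27 and 0.10 with the inhibitors over the 6 members above the floor, where all genes stood at 0.06, -0.00 and 0.03. In EHEB, fludarabine raised 3 of 8 members (TNFRSF10A, TNFRSF10C and TNFRSF10D), where 37.5% of genes were called, 18.4% higher and 19.2% lower. TNFRSF10C was tested, and so is among the 3 and the 8, only through its fludarabine level. Ibrutinib changed 4 of 8, 1 higher and 3 lower, where 19.7% of genes were called, 8.50% higher and 11.2% lower. Idelalisib likewise changed 4 of 8, 1 higher and 3 lower, where 33.3% of genes were called, 15.1% higher and 18.2% lower. The median member stood at 0.20, -0.40 and -0.43, the last values over the 7 above the floor, and that of all genes at 0.02, 0.01 and 0.01. The 3 lower calls with ibrutinib in EHEB (TNFRSF10A, CASP10 and APAF1) had adjusted p-values from 0.046 to 0.0494, and CFLAR was the member whose call held in all fits that left out a library.

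The share of calls that were higher depended on the scaling. With library totals in place of TMM it went from 48.4% to 74.1% for fludarabine in MEC1. For ibrutinib in MEC1 it went from 49.7% to 56.8%, and for idelalisib it moved the other way, from 50.2% to 43.5%. It went from 50.6%, 49.1% and 48.8% to 69.1%, 62.2% and 59.5% for fludarabine, ibrutinib and idelalisib in JVM2, and from 48.9%, 43.1% and 45.3% to 61.8%, 65.4% and 59.5% in EHEB. The same change moved the median of all genes by 0.25 for fludarabine in MEC1, 0.20 in JVM2 and 0.11 in EHEB on the log2 scale. It moved it by 0.10 for idelalisib in JVM2 and for each inhibitor in EHEB, by -0.17 between idelalisib and ibrutinib in MEC1, and by 0.14 and 0.12 between MEC1 and JVM2 or EHEB with DMSO. No member that was called changed direction with it, and FADD, TNFRSF10A and APAF1, the members lower with fludarabine in MEC1, did not pass there, while FADD in JVM2 passed as higher with fludarabine (0.41, adjusted p = 0.00529).

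Set against each other, idelalisib and ibrutinib differed in 1 member of 1 line. CFLAR was higher with idelalisib in JVM2 by 0.53 ± 0.081 (adjusted p = 0.00112), with 396, 435 and 470 CPM against 290, 295 and 314 CPM. In MEC1 the difference in CFLAR was 0.00 ± 0.091 and in EHEB 0.19 ± 0.081 (adjusted p = 0.141). This was 0 of 7 members in MEC1, 1 of 7 in JVM2 and 0 of 8 in EHEB, where 15.4%, 18.7% and 15.9% of all genes were called by edgeR. DESeq2 and limma-voom called 0 members in MEC1 and EHEB as well. At an unadjusted p below 0.05 FADD in MEC1 (-0.19 ± 0.082) and CFLAR in EHEB passed as well. So did CASP8 (-0.29 ± 0.11) and APAF1 (-0.16 ± 0.060) in JVM2. Scaling by library totals called FADD and APAF1 lower with idelalisib in MEC1 (-0.35 and -0.40). MEC1 had 39.1% of its calls higher, or 11.4% when scaled by library totals.

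Between lines, 6 of 8 members tested differed in the effect of fludarabine, where 39.1% of all genes did. The count was 4 of 7 in that of ibrutinib (33.6% of all genes) and 4 of 7 in that of idelalisib (45.7% of all genes). TNFRSF10D, CASP10 and CFLAR differed for all 3 drugs, in tests that share the DMSO libraries. How many of all genes did so was not counted. For CASP10 with fludarabine the difference did not pass in limma-voom (adjusted p = 0.0581).

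Of 31 other genes of the pathway on a list, 30 were tested in at least 1 line, and the decoy TNFRSF6B in none. RIPK3, the kinase of necroptosis, was higher in all 9 comparisons with DMSO, with adjusted p at most 0.0388. Its log2 fold change was 1.24 ± 0.26, 1.65 ± 0.26 and 1.63 ± 0.26 in MEC1 with fludarabine, ibrutinib and idelalisib in that order. It was 1.27 ± 0.13, 0.90 ± 0.13 and 1.32 ± 0.13 in JVM2, and 0.35 ± 0.095, 0.40 ± 0.095 and 0.29 ± 0.095 in EHEB. No other gene of the list passed in 1 direction in 7 or more comparisons. RIPK3 was low in MEC1 with DMSO, at 1.05, 1.10 and 1.55 CPM, against 4.74 to 5.47 CPM in JVM2 and 8.56 to 10.1 CPM in EHEB. The comparisons of a line share its DMSO libraries. In a single comparison 19.7% to 55.0% of all genes tested were called, and the share called in 1 direction in all 9 was not counted. The RIPK3 calls were not checked under the alternatives or with a library left out, as was done for the members.

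The ligands divided by line and drug. TNFSF10, which encodes TRAIL, was higher in MEC1 with all drugs, from 15.7, 19.2 and 19.4 CPM with DMSO to 35.0, 30.8 and 37.1 CPM with fludarabine and 57.9, 56.6 and 65.3 CPM with idelalisib. The log2 fold changes were 0.92 ± 0.099 and 1.73 ± 0.10, and it was the pathway gene with the largest change for idelalisib there. In JVM2 it had the largest change with fludarabine, from 6.05, 5.24 and 6.49 CPM to 38.3, 36.3 and 39.1 CPM (2.68 ± 0.13, adjusted p = 3.12e-08), in the same libraries in which TNFRSF10A and TNFRSF10D were raised. In EHEB it was lower with all drugs, down to 8.24, 7.62 and 7.66 CPM with idelalisib from 19.8, 17.1 and 16.5 CPM (-1.18 ± 0.097). TNF and LTA, the genes of the tumour necrosis factors, were raised by fludarabine in every line and lowered by idelalisib in JVM2 and EHEB. In EHEB the largest changes were those of LTA with fludarabine (1.08 ± 0.080) and TNF with idelalisib (-1.49 ± 0.064). FASLG, the ligand of the receptor FAS, passed the test with fludarabine in MEC1 on 8, 10 and 10 counts against 0 in all DMSO libraries, too few reads for a fold.

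TNFRSF11B, a soluble decoy for TRAIL, had the largest change with both inhibitors in JVM2 (1.46 ± 0.47 and 1.65 ± 0.47, on at most 35 counts) and with ibrutinib in EHEB (0.84 ± 0.17). The next genes were picked after their values were seen. Among the other caspases, CASP6 was higher in 6 comparisons and CASP9, the partner of APAF1, was called in none. BID, which links caspase-8 to mitochondria, was called in none either. Among the inhibitors on the list, XIAP, an inhibitor of caspases, and BIRC2 were each lower once. BIRC3 and FAIM were each higher in 4 comparisons and lower in none, and PEA15 was called in none. RIPK1, listed with the adaptors, was higher in 6 comparisons and lower in none. Of the pathway genes tested, 15 of 27, 11 of 27 and 9 of 27 were called in MEC1 with fludarabine, ibrutinib and idelalisib, 13, 7 and 12 of 29 in JVM2, and 11, 9 and 13 of 29 in EHEB. Fludarabine led to calls for 43.9% of all genes tested in MEC1, 47.2% of those in JVM2 and 37.5% of those in EHEB. With the lines in the same order, these shares were 47.6%, 29.4% and 19.7% for ibrutinib and 55.0%, 44.2% and 33.3% for idelalisib. Medians of the pathway genes lay between 0.03 and 0.30 on the log2 scale, where those of all genes lay between -0.00 and 0.08.

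**Figure D3:**
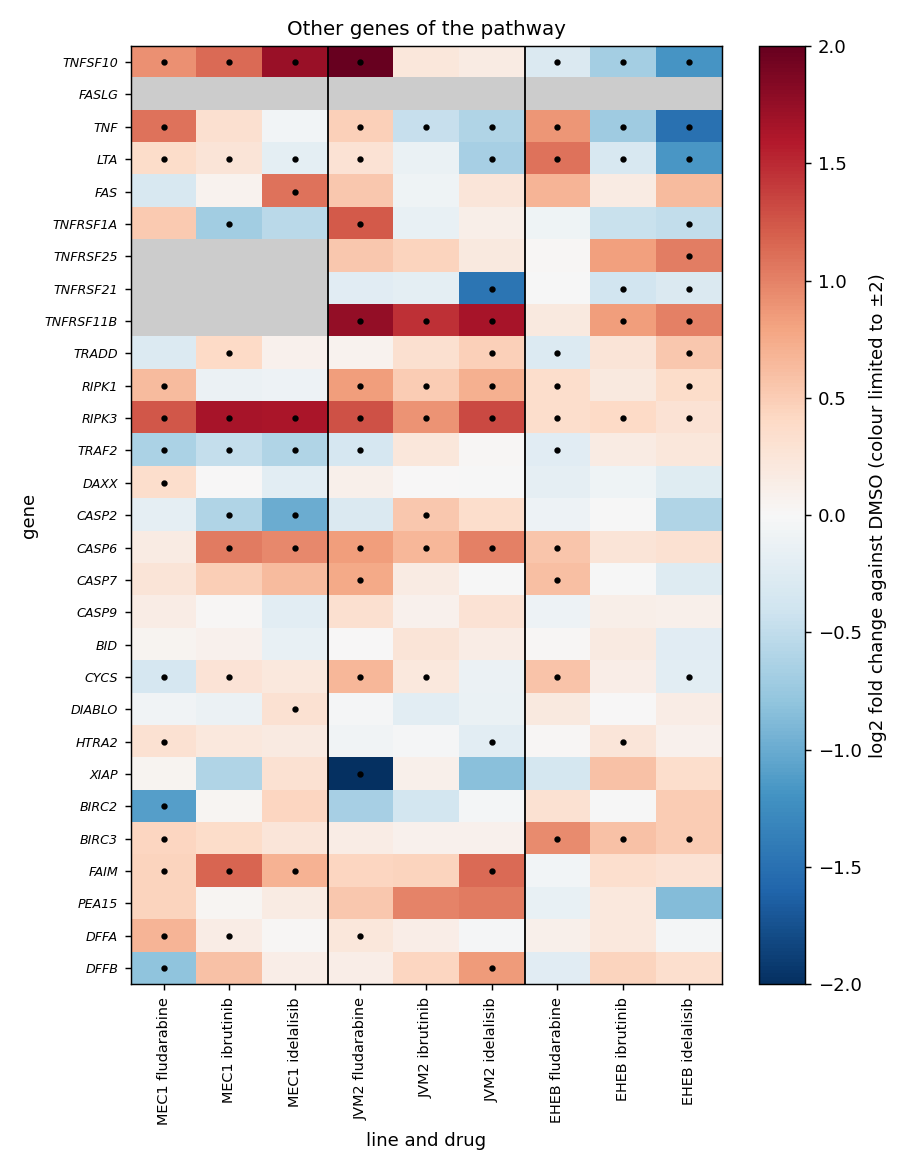
Log2 fold change against DMSO (colour, limited to ±2) of the other pathway genes in the 9 comparisons, with a dot where the adjusted p was below 0.05 and grey where a gene was not tested or, for FASLG, had too few reads. The RIPK3 line is red with a dot in all 9 columns, and TNFSF10 turns from red in MEC1 to blue in EHEB.

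Likeness of pattern was measured over the 12 groups, as Pearson's r of group means of log2 CPM with each line centred on its own mean, among 11928 genes. The genes most like CFLAR were OR5H7P and OGT (r = 0.98 for each). Those most like TNFRSF10D were POLH-AS1 and TNFRSF10B (r = 0.98 for each), and those most like TNFRSF10A were TMTC3 (0.98) and CHMP3 (0.96). FADD was closest to ARPC5L (0.95) and B4GAT1 (0.93), APAF1 to PSMB6 and MAPKAPK3 (0.95 for each), CASP8 to ATPAF2 (0.92) and LARP4 (0.89), and CASP10 to NAA50 and SUMO2P17 (0.92 for each). Among members, TNFRSF10A and TNFRSF10D were most alike (0.82) and FADD and CFLAR least (-0.71). TNFRSF10A entered this search only because its fludarabine level let it be tested in JVM2. Its other JVM2 groups summed to 0 counts with DMSO, 6 with ibrutinib and 0 with idelalisib. Its r values, that with TNFRSF10D included, therefore rest in part on the fludarabine rise given above. The groups of a line share its scaling and centring, so all these r values describe the 12 groups only.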

How the data were processed

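The authors trimmed reads (Trimmomatic), aligned them to hg38 with HISAT2 2.1 and quantified genes with StringTie 1.3.4, per the labels and the methods of the study. The deposited table holds estimated counts per gene for each library; low counts pile up at multiples of 8/3, so that 1 read is worth about 2.67 counts, and the floor of 3 reads was set at 8 counts. A nameless entry with 0.00384% of counts was left out. Counts were tested with edgeR 4.0.16 (TMM, filterByExpr with a minimum count of 10, quasi-likelihood F-test, Benjamini-Hochberg over all genes tested, threshold 0.05), in 1 fit of the 12 libraries per line, 1 of the 9 DMSO libraries, and 1 interaction test per drug on 18 libraries. A standard error is the log2 fold change over the root of F. The scripts were tested on simulated data. Alternatives were DESeq2 1.42.0, limma-voom 3.58.1, library-total scaling, no filter, a filter at a mean of 5 CPM, fits of 6 or 36 libraries, each library left out and, added after the data were seen, counts divided by 8/3. The members and lists were chosen with earlier results of these data known. Named pathway genes passed in 1 direction in 7 or more comparisons or had the largest change of a comparison. CASP6, CASP9, BID, XIAP, BIRC2, BIRC3, FAIM, PEA15 and RIPK1 were named after their values were seen. Each member was given its 2 most similar genes with a mean log2 CPM of at least 1. Libraries treated at other doses were not analysed here. A gene of the pathway list is counted in the list's totals but not reported here by itself.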

Additional observations from a re-analysis of the deposited data

Results flagged for a closer look

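The effect of a drug differed between the 3 lines by the interaction test for the following members, each with its adjusted p. For fludarabine these were TNFRSF10A (1.11e-08), TNFRSF10D (3.69e-08), APAF1 (5.39e-04), FADD (0.00113), CFLAR (0.00361) and CASP10 (0.0259). For ibrutinib they were CFLAR (9.78e-07), TNFRSF10D (1.55e-04), CASP10 (2.19e-04) and CASP8 (0.0177). For idelalisib they were CASP10 (1.46e-06), CFLAR (2.29e-04), TNFRSF10D (0.0014) and FADD (0.00868). The lines were exposed for different times, which cannot be told from line in any of them. TNFRSF10A in particular was lower in MEC1 and higher in JVM2 and EHEB with fludarabine. Its MEC1 call was lost with library totals and in the fit of 36 libraries. CASP10 was higher in JVM2 and lower in EHEB with ibrutinib. Its EHEB call was lost in most fits that left out a library.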

How the results depend on the processing

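No member called within a line changed direction under an alternative, while several lost the threshold. Scaling by library totals left 2 members called for fludarabine in MEC1, 2 for ibrutinib in MEC1, 1 for ibrutinib in EHEB and 2 for idelalisib in EHEB, and between idelalisib and ibrutinib in MEC1 it gave 4345 genes and 2 members. The fit of 6 libraries gave 1504 genes for the last comparison and 2 members for ibrutinib in EHEB, no filter gave 1 member there, and the stricter filter gave 1 for fludarabine in EHEB because it tested fewer members. With a library left out, members called ranged from 1 to 3 for ibrutinib in EHEB, from 2 to 4 for idelalisib in EHEB and from 0 to 1 between the inhibitors in EHEB, and genes called between the inhibitors in MEC1 from 1376 (without the ibrutinib library of the lowest number) to 2885, against 2694. Values that passed the test in neither setting changed sign in 17 cases, given on the log2 scale. With library totals they were TNFRSF10D in MEC1 with fludarabine (0.21), APAF1 in MEC1 with ibrutinib (0.056), CASP10 in MEC1 with idelalisib (-0.047), TNFRSF10D in MEC1 between the inhibitors (-0.0092), CASP8 in MEC1 between the inhibitors (-0.061), CFLAR in MEC1 between the inhibitors (-0.17), FADD in JVM2 with idelalisib (0.043) and CFLAR in EHEB with fludarabine (0.087). With the stricter filter they were TNFRSF10D in MEC1 with fludarabine (0.063), APAF1 in MEC1 with ibrutinib (0.063), TNFRSF10A in MEC1 with idelalisib (0.0074) and CFLAR in EHEB with fludarabine (0.020). Without a filter it was CASP8 in MEC1 with ibrutinib (-0.018). On counts divided by 8/3 it was APAF1 in MEC1 with ibrutinib (0.0077). In the fit of 36 libraries they were CASP8 in MEC1 with ibrutinib (-0.018), CASP10 in MEC1 with idelalisib (-0.017) and CFLAR in MEC1 between the inhibitors (-0.016). With a library left out, such values changed sign in 38 fits. In MEC1 the ranges were -0.18 to 0.070 for APAF1 with ibrutinib, -0.30 to 0.097 for CASP10 with ibrutinib, -0.046 to 0.093 for CASP10 with idelalisib, -0.054 to 0.34 for CASP10 between the inhibitors and -0.043 to 0.033 for CFLAR between the inhibitors. In JVM2 the ranges were -0.050 to 0.096 for FADD with ibrutinib, -0.0082 to 0.060 for APAF1 with idelalisib, -0.12 to 0.022 for FADD with idelalisib, -0.058 to 0.15 for CASP10 between the inhibitors and -0.67 to 0.28 for TNFRSF10D between the inhibitors. In EHEB the ranges were -0.34 to 0.15 for CASP10 with fludarabine, -0.091 to 0.064 for CFLAR with fludarabine, -0.0071 to 0.15 for CASP8 with ibrutinib, -0.11 to 0.048 for APAF1 between the inhibitors, -0.24 to 0.0094 for FADD between the inhibitors and -0.27 to 0.11 for TNFRSF10D between the inhibitors. The cause was not tested. No paired analysis was possible because the groups share no library numbers. Depth limits TNFRSF10C in MEC1 and JVM2 and TNFRSF10A in JVM2, where 3 reads per library was taken as the least that could be told from 0.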
